A study of Mus musculus with 20 samples.

Results

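The genes described here are the Serpin family in abdominal skin of mice with imiquimod-induced inflammation. Members were taken as all genes whose symbol starts with Serpin and for which the array holds a feature with exactly 1 gene symbol, and where a gene had several, the one with the highest mean of all 20 arrays stood for it. This gave 54 genes of the 22180 genes tested, 20 in clade A, 25 in clade B and 9 in clades C to I. This rule used no measured difference, but the family was chosen with earlier results of these data known. The RefSeq table (GRCm38.p6) names 69 Serpin genes, and the 15 without such a feature, among them Serpinb3b and Serpinb10, were not analysed here.

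RNA came from 20 C57/B6 mice aged 9 weeks, 1 array per mouse and 5 mice per group. In HFD-IMQ mice, fed a high fat diet (HFD), and in CD-IMQ mice, fed control chow (CD), the shaved abdomen received 62.5 mg of cream with 5% imiquimod (IMQ) daily for 5 days. HFD-vehicle and CD-vehicle mice had the same diets and received vehicle, and all mice were killed 24 h later. As an agonist of Toll-like receptor 7, imiquimod given repeatedly is a widely used model of psoriasis-like inflammation. The model is short and drug-driven, the labels name no transgene or mutation, and whole skin was measured, so that fewer cells of a type and less RNA per cell cannot be told apart.

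Serpins are proteins of a shared fold, most of which inhibit proteases. An inhibitory serpin offers an exposed loop as bait, and the protease that cuts it is trapped in a covalent complex and distorted. Clade A holds mainly secreted plasma proteins such as the antitrypsins and antichymotrypsins, many made in liver. Clade B holds the intracellular ov-serpins, several of which are known from squamous epithelium. The remaining clades include antithrombin, C1 inhibitor, the plasmin inhibitor and the collagen chaperone HSP47.

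Values are log2 intensities, so a difference of 1 is a doubling. Array medians lay between 2.86 and 3.04, and a value at or below them is near background, where the size of a change is uncertain. By that measure all 4 group means lay below the lowest array median for 28 members, 13 of clade A, 9 of clade B and 6 of the other clades. The other 26 members, 7, 16 and 3 in the same order of clades, lay above it in at least 1 group. Skin keratins gave strong signals, with Krt10 at 11.77, 11.73, 11.52 and 11.13 in HFD-IMQ, CD-IMQ, HFD-vehicle and CD-vehicle skin. HFD-vehicle 3, HFD-IMQ 4 and CD-vehicle 3 lay farthest from their group means over all genes, with 28.4% to 42.8% of the squared distances of their groups.

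After IMQ the family split by clade and by chromosome. In HFD-fed mice 7 members rose and 4 fell, 20.4% of 54 against 5.89% of all genes tested, at a limma adjusted p below 0.05; over all genes 3.65% rose and 2.24% fell. In CD-fed mice 8 rose and 6 fell, 25.9% against 10.9% of all genes tested, of which 3.91% rose and 7.02% fell. The members that moved in both diets numbered 9, of 16 that moved in either. The median log2 change of the 54 was -0.05 in HFD-fed and 0.05 in CD-fed mice, against -0.00067 and 0.02 over all genes, so most of the family stayed near 0. For 10 members in HFD-fed and 11 in CD-fed mice the arrays of the groups did not overlap, where this held for 6.06% and 8.89% of all genes.

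**Figure D1:**
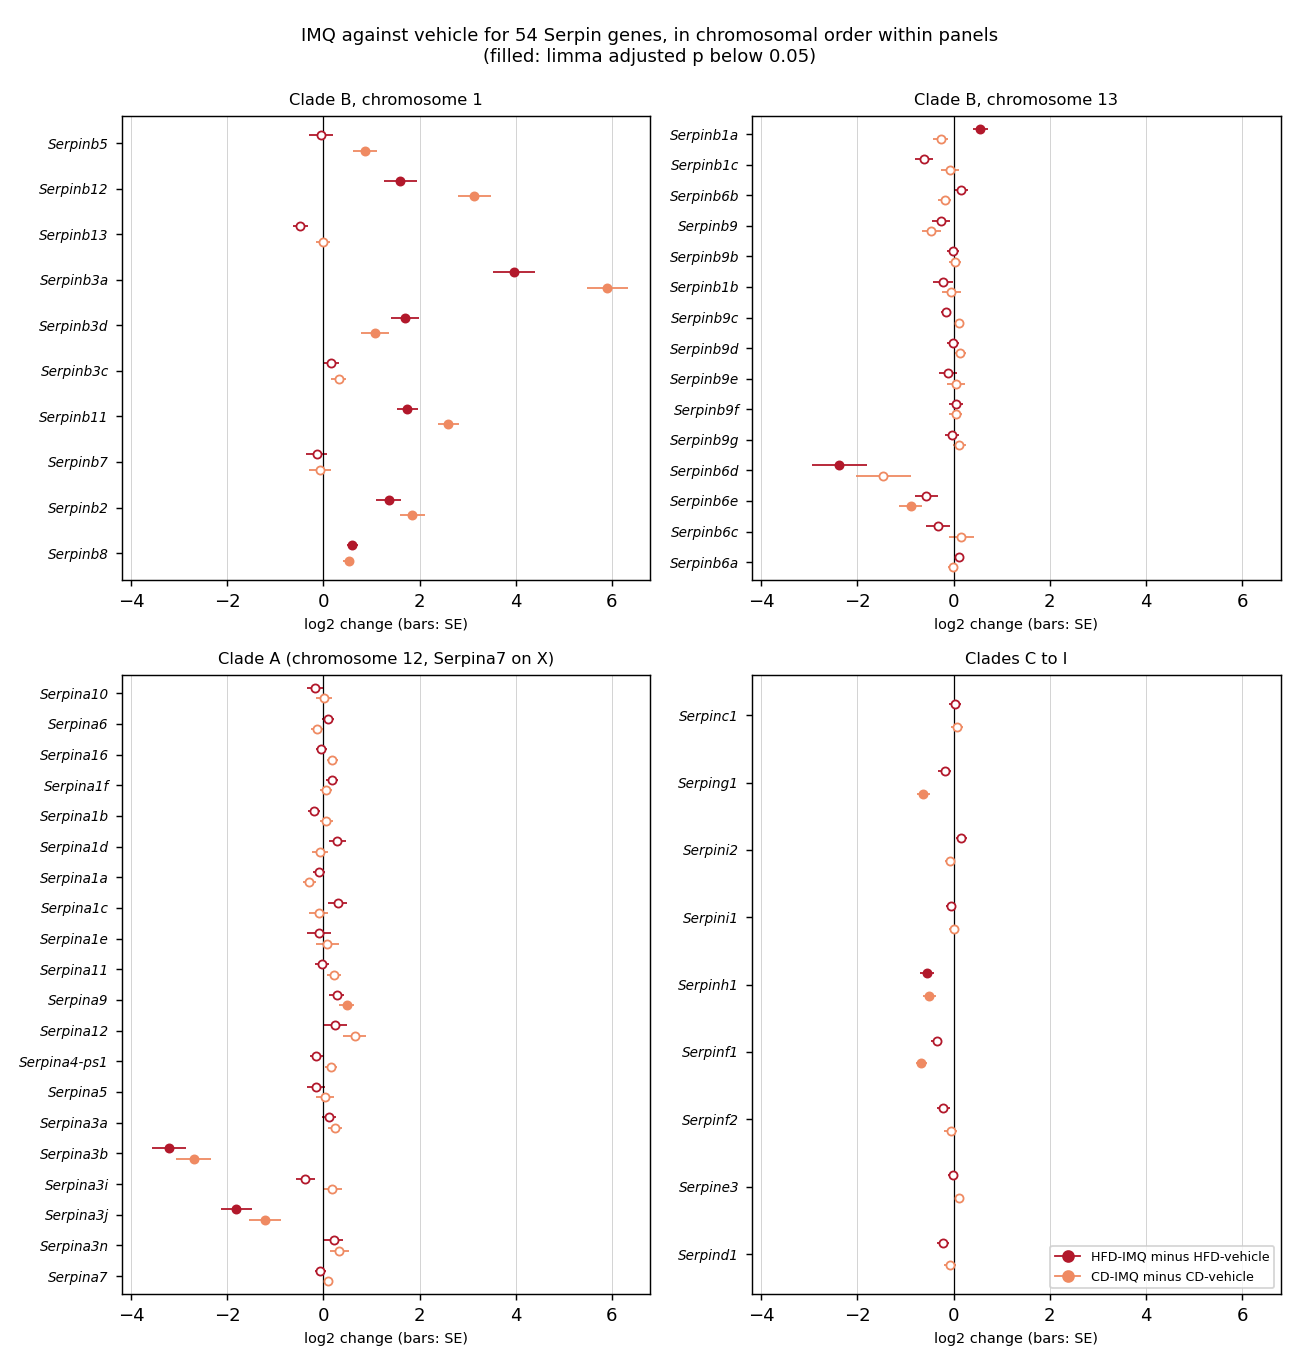
Log2 change of each of the 54 Serpin genes (x axis) for HFD-IMQ minus HFD-vehicle (dark red) and CD-IMQ minus CD-vehicle (orange), with bars of 1 SE and filled points where the limma adjusted p was below 0.05. Genes run in chromosomal order in each panel. Of the rises all but those of Serpinb1a and Serpina9 lie among the clade B genes of chromosome 1, from 0.52 for Serpinb8 to 5.90 for Serpinb3a in CD-fed mice, and the falls of Serpina3b and Serpina3j stand out in clade A.

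Clade B genes lie in a cluster on chromosome 1 and in a cluster on chromosome 13, and the 10 measured members of the first held nearly all of the rises. On chromosome 1, 6 of 10 rose and 0 fell in HFD-fed mice, and 7 of 10 rose and 0 fell in CD-fed mice. On chromosome 13, 1 of 15 rose and 1 fell in HFD-fed mice, and 0 rose and 1 fell in CD-fed mice. Of the chromosome 1 members 60% and 70% were called in HFD-fed and CD-fed mice, and of the chromosome 13 members 13.3% and 6.67%, against 5.89% and 10.9% of all genes. The clusters also differ in signal. All group means lay below the lowest array median for Serpinb13 and Serpinb3c on chromosome 1. The same held for Serpinb1b and Serpinb9b to Serpinb9g on chromosome 13. Of the 28 such dim members of the family 1, Serpina9, was called in any comparison. The part of signal level in the contrast of the clusters was not tested. The median change was 0.98 and 0.97 on chromosome 1 in HFD-fed and CD-fed mice, and -0.13 and -0.01 on chromosome 13. In the RefSeq order along chromosome 1, Serpinb5, Serpinb12, Serpinb13, Serpinb3a, Serpinb3d, Serpinb3c, Serpinb11, Serpinb7, Serpinb2 and Serpinb8, the members that were not called in CD-fed mice (Serpinb13, Serpinb3c and Serpinb7) stood between members that rose.

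The 250 bases before the annotated starts of 6 of these genes are shown because most members of the cluster rose after IMQ. Of the close copies Serpinb3a and Serpinb3c, the first rose and the second stayed below the array medians in every group. Sequences are from RefSeq (GRCm38.p6), 5′ to 3′ on the strand of the gene. Capitals mark matches to the AP-1 motif TGANTCA and to the TATA box letters TATAAA, each searched on both strands. The windows are chr1:107511173-107511422 (+) for Serpinb2, chr1:107589756-107590005 (+) for Serpinb8, chr1:107362064-107362313 (+) for Serpinb11, chr1:106934199-106934448 (+) for Serpinb12, chr1:107052304-107052553 (-) for Serpinb3a and chr1:107278372-107278621 (-) for Serpinb3c.
Serpinb2: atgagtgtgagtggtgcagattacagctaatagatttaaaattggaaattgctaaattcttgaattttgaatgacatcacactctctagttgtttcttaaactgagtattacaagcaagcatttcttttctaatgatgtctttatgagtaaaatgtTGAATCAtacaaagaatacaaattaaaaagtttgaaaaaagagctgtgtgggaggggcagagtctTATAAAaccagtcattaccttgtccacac
Serpinb8: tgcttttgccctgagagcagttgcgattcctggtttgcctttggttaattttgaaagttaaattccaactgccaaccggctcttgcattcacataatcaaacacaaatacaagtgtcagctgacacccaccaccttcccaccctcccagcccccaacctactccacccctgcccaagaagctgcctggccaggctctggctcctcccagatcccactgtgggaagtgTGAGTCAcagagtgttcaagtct
Serpinb11: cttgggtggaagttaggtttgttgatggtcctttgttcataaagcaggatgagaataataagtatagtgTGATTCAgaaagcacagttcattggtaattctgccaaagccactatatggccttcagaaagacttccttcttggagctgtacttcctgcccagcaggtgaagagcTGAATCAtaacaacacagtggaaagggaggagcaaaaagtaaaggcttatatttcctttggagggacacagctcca
Serpinb12: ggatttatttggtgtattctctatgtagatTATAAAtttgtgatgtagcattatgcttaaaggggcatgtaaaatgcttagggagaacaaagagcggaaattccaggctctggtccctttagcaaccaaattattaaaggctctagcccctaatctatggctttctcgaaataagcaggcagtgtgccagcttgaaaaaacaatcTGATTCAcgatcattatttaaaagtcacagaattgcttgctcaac
Serpinb3a: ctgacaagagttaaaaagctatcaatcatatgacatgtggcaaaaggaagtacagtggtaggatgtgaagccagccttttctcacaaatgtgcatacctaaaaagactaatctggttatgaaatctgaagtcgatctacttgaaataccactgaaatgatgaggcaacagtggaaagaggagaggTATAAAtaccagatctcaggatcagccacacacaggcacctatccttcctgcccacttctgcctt
Serpinb3c: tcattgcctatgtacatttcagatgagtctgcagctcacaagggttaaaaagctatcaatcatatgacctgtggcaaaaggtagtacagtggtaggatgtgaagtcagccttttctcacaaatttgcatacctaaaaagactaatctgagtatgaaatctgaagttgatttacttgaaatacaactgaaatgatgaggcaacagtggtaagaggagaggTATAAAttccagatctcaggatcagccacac

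Counted per gene over all its annotated starts (Serpinb2 and Serpinb12 have 2 each), a TGANTCA match stood before 6 of the 9 chromosome 1 members with a window, Serpinb2, Serpinb5, Serpinb7, Serpinb8, Serpinb11 and Serpinb12. It stood before 0 of 14 members on chromosome 13, 4 of 16 in clade A (Serpina1a to Serpina1d, none of them called) and 0 of 8 in the other clades, against 7.82% of 27025 genes. Of the 10 members with a match, 5 were called in an IMQ comparison and 5 in neither. In Serpinb8 the match began 23 bases before the start, in Serpinb12 45, in Serpinb2 94 and in Serpinb5 140. Serpinb7, which was not called in either IMQ comparison, also held a match, and Serpinb3a, with the largest rise, held none. TATAAA on either strand stood before 6 of these 9 genes, against 14.3% of all genes. In Serpinb3d and Serpinb7 it lay only on the strand opposite to the gene. In Serpinb12 it began 220 and 201 bases before the 2 starts. The STAT motif TTCNNNGAA stood before 1 of 9, at the start of Serpinb2 that is not printed, against 8.13%. Matches are descriptions of letters and not sites shown to be bound. AP-1 and TATA matches did not overlap each other.

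Serpinb3a, the mouse relative of the human squamous cell carcinoma antigens, which inhibit serine and cysteine proteases, had the largest rise of the family. It read 8.72, 8.001, 8.87, 8.17 and 9.06 in HFD-IMQ skin, against 5.36, 4.70, 2.72, 5.70 and 4.51 in HFD-vehicle skin. The values were 8.30, 8.07, 8.06, 8.20 and 8.29 in CD-IMQ skin, against 1.39, 3.15, 1.85, 3.47 and 1.54 in CD-vehicle skin. All IMQ arrays lay far above all vehicle arrays of either diet, and the CD-IMQ arrays were close together while both vehicle groups were spread. The rise was 3.96 ± 0.43 (SE, n = 5 per group) in HFD-fed mice, 15.6-fold (limma adjusted p = 1.97e-06), and 5.90 ± 0.43 in CD-fed mice (2.99e-09). Most CD-vehicle values lie near or below the array medians, so the size of the second rise is uncertain.

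Its neighbour Serpinb3d had smaller rises, and its neighbour Serpinb3c was not called. Serpinb3d read 3.95, 2.31, 3.90, 2.35 and 3.99 in HFD-IMQ skin, against 1.87, 1.46, 1.63, 1.30 and 1.79 in HFD-vehicle skin. In CD-IMQ skin it read 2.29, 2.36, 2.25, 1.93 and 3.31, against 1.37, 1.52, 1.29, 1.21 and 1.37 in CD-vehicle skin. The groups did not overlap in either diet, but only 4 IMQ values exceeded the array medians. It rose by 1.69 ± 0.29 in HFD-fed mice (adjusted p = 0.00066) and by 1.08 ± 0.29 in CD-fed mice (0.019), the last not called without CD-IMQ 5 (0.86, adjusted p = 0.068). Serpinb3c stayed below background level in every group, with means of 1.42, 1.55, 1.26 and 1.24 in HFD-IMQ, CD-IMQ, HFD-vehicle and CD-vehicle skin. The windows of Serpinb3a and Serpinb3c printed above are shifted against each other, and 203 of the 216 bases of their overlap were identical (94.0%). The Serpinb3 genes are close copies and the probe sequences were not used here, so it was not tested how far their features share signal.

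Serpinb11 and Serpinb12, epithelial clade B genes, rose in both diets. Serpinb11 read 5.68, 5.40, 5.54, 5.46 and 6.34 in HFD-IMQ skin, against 4.19, 3.62, 4.59, 4.03 and 3.26 in HFD-vehicle skin. It read 5.41, 5.55, 5.77, 5.31 and 5.80 in CD-IMQ skin, against 2.65, 2.62, 3.02, 3.52 and 3.04 in CD-vehicle skin. No array of an IMQ group fell into the range of a vehicle group, and the changes were 1.75 ± 0.22 in HFD-fed mice (adjusted p = 1.52e-05) and 2.60 ± 0.22 in CD-fed mice (3.13e-08). Most CD-vehicle values of Serpinb11 lie near or below the array medians, so the size of the second rise is uncertain. Serpinb12, whose human counterpart inhibits trypsin-like proteases, read 7.04, 6.60, 6.50, 6.49 and 7.05 in HFD-IMQ skin, against 6.06, 5.07, 3.97, 6.08 and 4.53 in HFD-vehicle skin. In CD-IMQ skin its values were 7.09, 6.87, 6.84, 6.90 and 6.54, against 3.80, 4.75, 2.61, 3.77 and 3.62 in CD-vehicle skin. The highest HFD-vehicle arrays, 1 and 4, came close to the lowest HFD-IMQ array, while CD-vehicle stayed far below CD-IMQ. The rises were 1.60 ± 0.34 in HFD-fed mice (0.0048) and 3.14 ± 0.34 in CD-fed mice (2.07e-06).

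Serpinb2 encodes plasminogen activator inhibitor 2, an intracellular inhibitor of urokinase that keratinocytes and macrophages make. It read 8.14, 8.24, 8.70, 7.97 and 8.63 in HFD-IMQ skin, against 6.75, 7.36, 7.12, 6.96 and 6.68 in HFD-vehicle skin. In CD-IMQ skin it read 8.11, 7.96, 8.36, 7.69 and 8.16, against 6.26, 6.43, 4.89, 7.01 and 6.44 in CD-vehicle skin. The groups stood apart in both diets, and CD-vehicle 3 was the lowest array of all 20. The rises were 2.57-fold in HFD-fed mice (1.36 ± 0.26, adjusted p = 0.0016) and 3.60-fold in CD-fed mice (1.85 ± 0.26, 4.59e-05).

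The remaining genes of the cluster had small changes or none that was called. Serpinb8, a furin inhibitor whose loss in humans causes an exfoliative skin disease, averaged 6.10 ± 0.16 (SD, n = 5) in HFD-IMQ skin and 5.50 ± 0.17 in HFD-vehicle skin, and 5.97 ± 0.19 in CD-IMQ skin and 5.44 ± 0.16 in CD-vehicle skin. Its rises of 0.60 ± 0.12 (SE, adjusted p = 0.0020) and 0.52 ± 0.12 (0.0048) were small, and the groups did not overlap in either diet. Serpinb5, the epithelial protein maspin, which is not known as a protease inhibitor, averaged 8.09 ± 0.24 in HFD-IMQ skin and 8.14 ± 0.38 in HFD-vehicle skin, a difference of -0.06 ± 0.25 that was not called. It averaged 8.10 ± 0.25 in CD-IMQ skin and 7.24 ± 0.73 in CD-vehicle skin, a rise of 0.87 ± 0.25 (adjusted p = 0.026). That call ended without CD-vehicle 3 (0.55, adjusted p = 0.057), CD-IMQ 1 (0.056) or CD-IMQ 3 (0.068). Serpinb7, known as megsin and mutated in a human palmoplantar keratoderma, differed by -0.14 ± 0.23 and -0.06 ± 0.23 in HFD-fed and CD-fed mice. Serpinb13, which inhibits lysosomal cathepsins in human keratinocytes, was near background, with differences of -0.48 ± 0.15 (adjusted p = 0.077) and -0.01 ± 0.15.

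**Figure D2:**
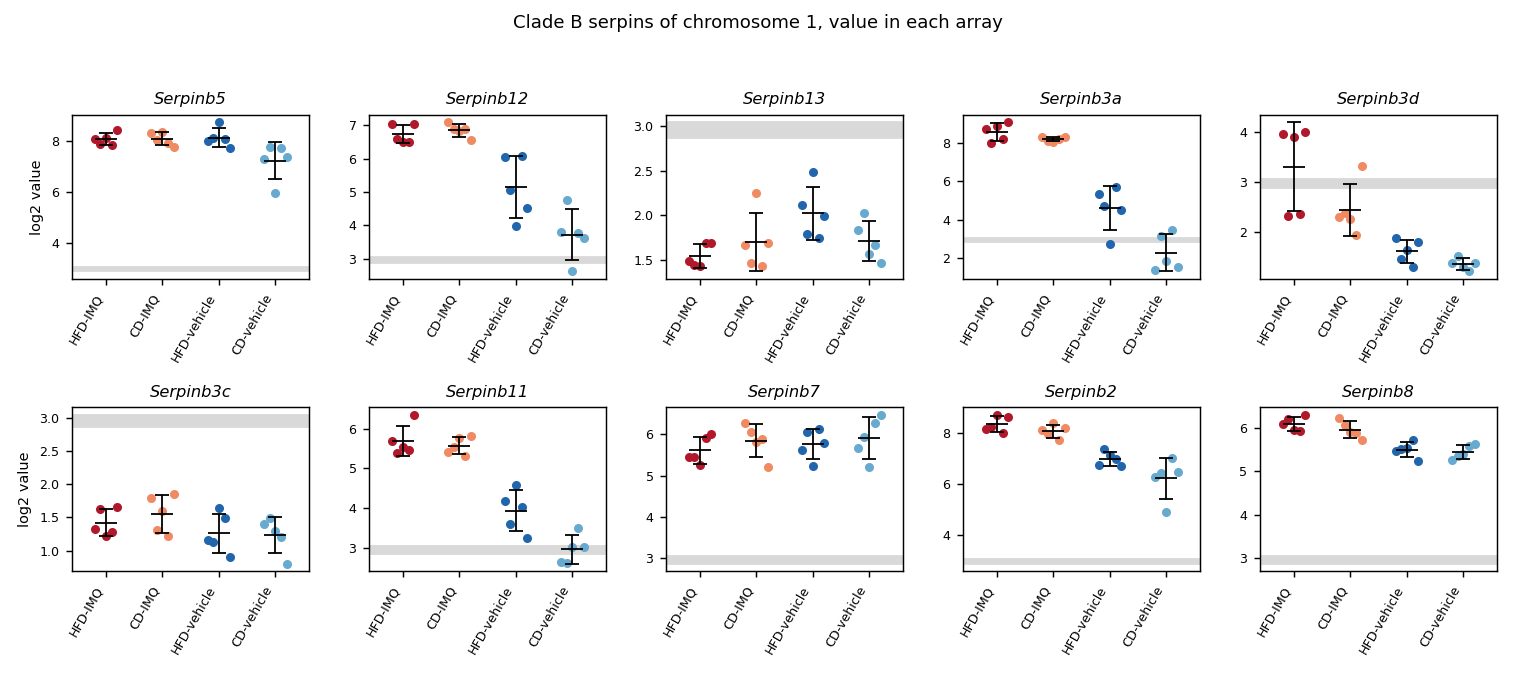
Log2 value in each array (points) for the 10 clade B genes of chromosome 1, in chromosomal order, with group mean and SD (black, n = 5); the grey band is the range of array medians. Serpinb3a, Serpinb11, Serpinb12 and Serpinb2 are higher in every IMQ array than in any vehicle array of the same diet, and Serpinb3c and Serpinb13 lie below the band in every group.

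On chromosome 13 the 15 measured clade B genes comprise the Serpinb1, Serpinb6 and Serpinb9 groups, relatives of human inhibitors of neutrophil elastase, cathepsin G and granzyme B. Serpinb1a, which inhibits neutrophil serine proteases, read 6.18, 6.09, 6.03, 5.57 and 6.07 in HFD-IMQ skin, against 5.16, 5.63, 4.90, 5.87 and 5.60 in HFD-vehicle skin. Its rise of 0.56 ± 0.16 (adjusted p = 0.042) came with overlapping groups. The call ended without HFD-vehicle 1 (0.110), HFD-vehicle 3 (0.129), HFD-IMQ 1 (0.114), HFD-IMQ 2 (0.090), HFD-IMQ 3 (0.083) or HFD-IMQ 5 (0.093), and narrowly without CD-vehicle 5 (0.051) or CD-IMQ 5 (0.050). In CD-fed mice it averaged 5.68 ± 0.21 in CD-IMQ skin and 5.95 ± 0.19 in CD-vehicle skin, a difference of -0.27 ± 0.16 that was not called.

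Serpinb6d and Serpinb6e, mouse genes of the Serpinb6 group, were the members of clade B that fell. Serpinb6d read 3.47, 4.62, 3.37, 5.68 and 3.70 in HFD-IMQ skin, against 7.91, 6.17, 6.09, 6.51 and 6.07 in HFD-vehicle skin. All HFD-IMQ arrays lay below all HFD-vehicle arrays, and the fall was -2.38 ± 0.57 (adjusted p = 0.012), 5.21-fold. In CD-IMQ skin it read 6.25, 4.66, 6.60, 5.79 and 4.54, against 7.35, 8.24, 4.70, 6.79 and 8.09 in CD-vehicle skin. Here CD-vehicle 3 lay among the IMQ arrays, and the difference of -1.46 ± 0.57 was not called (0.109), whereas without that array it was -2.05 (0.010). Serpinb6e read 2.51, 1.82, 1.95, 2.50 and 2.02 in HFD-IMQ skin and 2.44, 2.87, 3.54, 2.40 and 2.38 in HFD-vehicle skin, a difference of -0.57 ± 0.25 that was not called. It read 2.25, 1.94, 2.28, 2.37 and 2.20 in CD-IMQ skin, against 2.95, 3.74, 2.10, 3.27 and 3.45 in CD-vehicle skin, a fall of -0.89 ± 0.25 (0.020) with CD-vehicle 3 again inside the IMQ range. That call ended without CD-vehicle 2 (0.060) or CD-vehicle 5 (0.058), and all IMQ values of Serpinb6e lie below the array medians.

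The remaining 12 genes of the chromosome 13 cluster were not called in any comparison. Serpinb9, whose product inhibits granzyme B and protects cytotoxic and bystander cells, differed by -0.26 ± 0.19 in HFD-fed and -0.46 ± 0.19 in CD-fed mice. Serpinb6a, a broadly expressed cathepsin G inhibitor, averaged 5.18, 5.26, 5.06 and 5.28 in HFD-IMQ, CD-IMQ, HFD-vehicle and CD-vehicle skin and varied little. Serpinb1c differed by -0.62 ± 0.19 in HFD-fed mice (adjusted p = 0.0509), just outside the threshold. The genes Serpinb9b, Serpinb9c, Serpinb9d, Serpinb9e, Serpinb9f, Serpinb9g and Serpinb1b had group means below the array medians throughout. Serpinb9b, the only member with a further feature carrying 1 symbol, was still dimmer there. The further feature averaged 1.32, 1.44, 1.49 and 1.32 in HFD-IMQ, CD-IMQ, HFD-vehicle and CD-vehicle skin. The feature used averaged 2.75, 2.78, 2.77 and 2.75.

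Clade A gave the largest fall, that of Serpina3b in the mouse antichymotrypsin-related Serpina3 group. In HFD-fed mice 0 of 20 members rose and 2 fell, 10% against 5.89% of all genes, and in CD-fed mice 1 rose and 2 fell, 15% against 10.9%, so the number called was near the background. Serpina3b read 4.95, 5.75, 4.36, 6.05 and 5.53 in HFD-IMQ skin, against 8.73, 9.15, 8.91, 8.35 and 7.55 in HFD-vehicle skin. It read 6.36, 6.11, 6.998, 6.35 and 5.55 in CD-IMQ skin, against 8.98, 9.59, 7.59, 9.50 and 9.19 in CD-vehicle skin. Every IMQ array lay below every vehicle array, and the gene fell 9.26-fold in HFD-fed mice (-3.21 ± 0.36, adjusted p = 3.75e-06) and 6.48-fold in CD-fed mice (-2.70 ± 0.36, 2.92e-05).

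Serpina3j fell with it. The values were 6.67, 7.42, 5.995, 7.68 and 7.16 in HFD-IMQ skin, against 8.72, 9.32, 9.13, 8.68 and 8.12 in HFD-vehicle skin. They were 6.86, 7.51, 7.61, 7.48 and 7.06 in CD-IMQ skin, against 8.36, 9.16, 7.33, 9.37 and 8.38 in CD-vehicle skin. The groups stood apart in HFD-fed mice (-1.81 ± 0.33, adjusted p = 0.0010), and in CD-fed mice only CD-vehicle 3 lay inside the IMQ range (-1.21 ± 0.33, 0.018). The second call ended without CD-vehicle 4 (-1.002, adjusted p = 0.055).

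Serpina3n, a secreted acute-phase inhibitor of granzyme B and leukocyte elastase in mice, stayed high in every group. It read 9.17, 9.50, 9.08, 8.95 and 8.93 in HFD-IMQ skin, against 9.06, 9.15, 8.09, 9.06 and 9.22 in HFD-vehicle skin. In CD-IMQ skin it read 8.93, 8.94, 9.24, 8.88 and 9.11, against 8.30, 8.46, 9.06, 9.22 and 8.44 in CD-vehicle skin. The groups overlapped in both diets, and differences of 0.21 ± 0.20 and 0.33 ± 0.20 were not called. Over the 257 bases in which the 250-base windows before their starts align, gaps included, Serpina3b and Serpina3n share 181 bases (70.4%). The mouse Serpina3 genes are close relatives too, and shared signal among their features was not tested.

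Among the other members of clade A, Serpina12, the adipokine vaspin, an inhibitor of kallikrein 7, averaged 4.35 ± 0.32 in HFD-IMQ skin and 4.11 ± 0.47 in HFD-vehicle skin, and 4.62 ± 0.21 in CD-IMQ skin and 3.97 ± 0.63 in CD-vehicle skin. Its differences of 0.25 ± 0.25 and 0.65 ± 0.25 (adjusted p = 0.097) were not called. Serpina9, a gene of germinal centre B cells in humans, was below the array medians in every group. It read 2.57, 2.48, 2.52, 2.57 and 2.65 in HFD-IMQ skin and 1.87, 2.16, 3.02, 2.18 and 2.15 in HFD-vehicle skin, and 2.07, 2.02, 2.16, 2.62 and 2.18 in CD-IMQ skin against 1.64, 1.83, 1.75, 1.55 and 1.86 in CD-vehicle skin. Its rise in CD-fed mice (0.48 ± 0.16, adjusted p = 0.048) was lost on leaving out any single array other than CD-IMQ 2, HFD-vehicle 1 and HFD-vehicle 3 (adjusted p up to 0.152, without CD-IMQ 4), and in HFD-fed mice it was called only without HFD-vehicle 3 (0.46, adjusted p = 0.020). The plasma protein genes of the clade, which include the antitrypsin genes Serpina1a to Serpina1e, the corticosteroid carrier Serpina6, the thyroxine carrier Serpina7 and the coagulation inhibitors Serpina5 and Serpina10, were not called. The hepatocyte marker list gave means of 2.61, 2.63, 2.59 and 2.75 in HFD-IMQ, CD-IMQ, HFD-vehicle and CD-vehicle skin, at or below the array medians, and 0 of its 7 measured genes were called in any comparison.

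**Figure D3:**
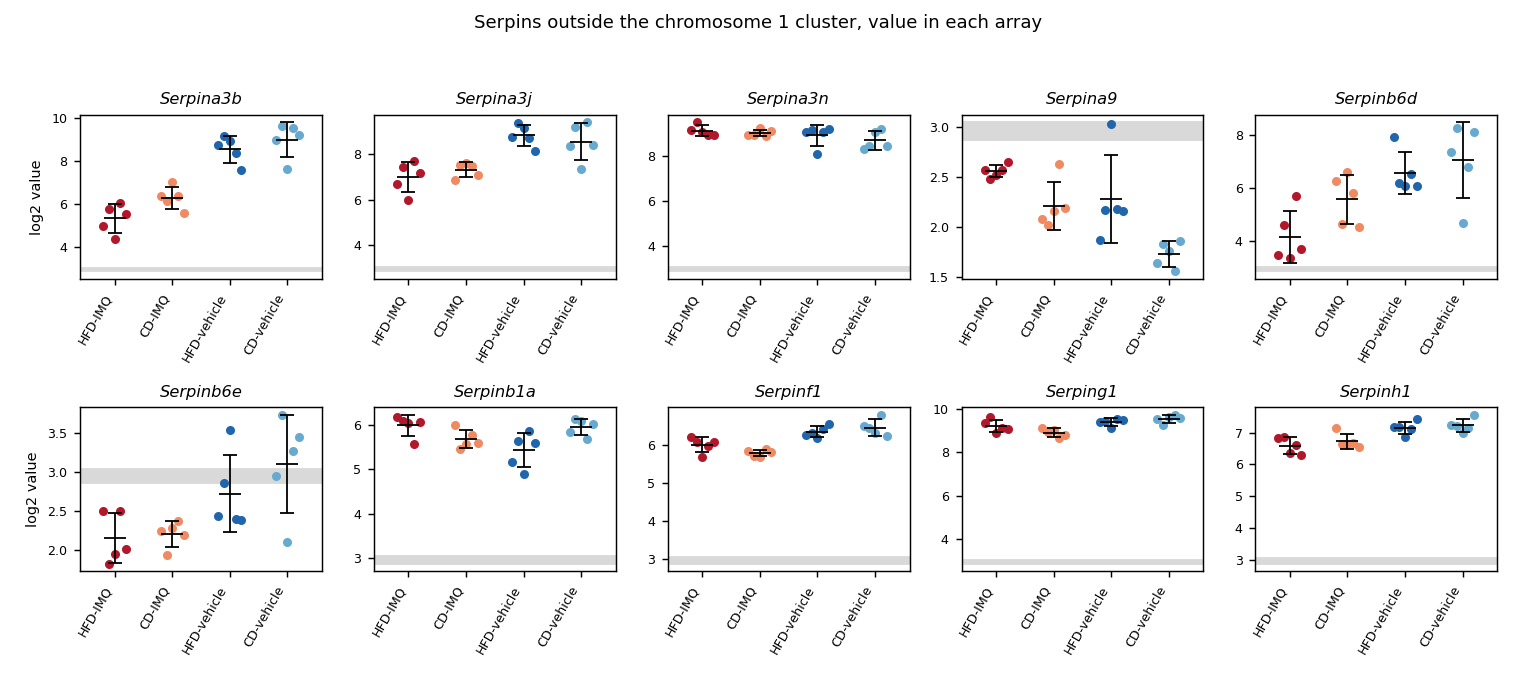
Log2 value in each array (points) for 10 Serpin genes outside the chromosome 1 cluster, with group mean and SD (black, n = 5); the grey band is the range of array medians. Serpina3b lies lower in every IMQ array than in any vehicle array, Serpina3n overlaps between all groups, and CD-vehicle 3 is the low CD-vehicle point for Serpina3b, Serpina3j, Serpinb6d and Serpinb6e.

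Of the 9 members outside clades A and B, 3 lay above the array medians and each fell in at least 1 diet. Only Serpinh1 was called in HFD-fed mice, 11.1% of the 9 against 5.89% of all genes. All 3 fell in CD-fed mice, 33.3% of the 9 against 10.9% of all genes called and 7.02% that fell. Serpinh1 encodes HSP47, the collagen chaperone of the endoplasmic reticulum, which does not inhibit proteases. It read 6.85, 6.85, 6.35, 6.61 and 6.31 in HFD-IMQ skin, against 7.18, 7.19, 6.85, 7.11 and 7.42 in HFD-vehicle skin. In CD-IMQ skin it read 7.14, 6.64, 6.63, 6.69 and 6.55, against 7.23, 7.22, 6.998, 7.14 and 7.57 in CD-vehicle skin. The groups touched or overlapped, with falls of -0.56 ± 0.14 (adjusted p = 0.018) and -0.50 ± 0.14 (0.023). Leaving out HFD-vehicle 5 (0.057), HFD-IMQ 3 (0.058) or HFD-IMQ 5 (0.064) ended the first call, and leaving out CD-vehicle 5 (0.075), CD-IMQ 3 (0.053), CD-IMQ 4 (0.051) or CD-IMQ 5 (0.066) the second.

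Serpinf1 encodes pigment epithelium-derived factor, a secreted inhibitor of vessel growth. It read 6.21, 6.06, 5.68, 5.98 and 6.06 in HFD-IMQ skin, against 6.26, 6.31, 6.18, 6.43 and 6.55 in HFD-vehicle skin. It read 5.83, 5.71, 5.69, 5.88 and 5.82 in CD-IMQ skin, against 6.50, 6.45, 6.32, 6.79 and 6.22 in CD-vehicle skin. The difference of -0.35 ± 0.11 in HFD-fed mice was not called (adjusted p = 0.085), and in CD-fed mice, where no array overlapped, it fell by -0.67 ± 0.11 (0.00047). Serping1 encodes C1 inhibitor, which blocks complement C1 proteases, kallikrein and factor XII. It read 9.35, 9.61, 8.90, 9.12 and 9.10 in HFD-IMQ skin, against 9.40, 9.45, 9.13, 9.56 and 9.47 in HFD-vehicle skin. Its values were 9.14, 8.94, 9.05, 8.64 and 8.80 in CD-IMQ skin, against 9.56, 9.24, 9.62, 9.73 and 9.58 in CD-vehicle skin. The HFD groups overlapped (-0.19 ± 0.13, not called), and the CD groups did not (-0.63 ± 0.13, adjusted p = 0.0028). Whether the falls of Serpinf1 and Serping1 differ between diets was tested by the interaction, which was not called for either (0.32 ± 0.16, adjusted p = 0.337, and 0.45 ± 0.19, 0.242). The genes of antithrombin (Serpinc1), heparin cofactor II (Serpind1), the plasmin inhibitor (Serpinf2), neuroserpin (Serpini1), Serpini2 and Serpine3 lay below the array medians and were not called in any comparison.

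The diet comparison in vehicle-treated skin called clade B genes of the chromosome 1 cluster. Serpinb3a, Serpinb11 and Serpinb12 were higher in HFD-vehicle than in CD-vehicle skin and 0 members were lower, 5.56% of 54 against 2.18% of all genes tested (1.22% higher and 0.956% lower). Serpinb3a averaged 4.60 ± 1.15 (SD) in HFD-vehicle skin and 2.28 ± 0.96 in CD-vehicle skin (2.32 ± 0.43, SE, adjusted p = 0.0047), Serpinb12 5.14 ± 0.93 and 3.71 ± 0.76 (1.43 ± 0.34, 0.029), and Serpinb11 3.94 ± 0.52 and 2.97 ± 0.36 (0.97 ± 0.22, 0.021). The number of HFD-vehicle arrays above the highest CD-vehicle array was 4 of 5 for Serpinb3a, 4 of 5 for Serpinb11 and 3 of 5 for Serpinb12, so the groups overlapped for each. With only the 10 vehicle arrays in the fit none of the 3 was called (adjusted p = 0.067, 0.084 and 0.140 for Serpinb3a, Serpinb11 and Serpinb12). In that fit 7 of 54 members had an unadjusted p below 0.05, 13% against 14% of all genes.

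Single arrays also decided these diet calls. Serpinb11 was not called without CD-vehicle 1 (adjusted p = 0.053), HFD-vehicle 1 (0.063) or HFD-vehicle 3 (0.060). Serpinb12 was not called without CD-vehicle 3 (0.105), CD-vehicle 5 (0.065), HFD-vehicle 1 (0.094), HFD-vehicle 2 (0.0501) or HFD-vehicle 4 (0.071). Serpinb3a was called without any single array. Serpinb5 (0.91 ± 0.25, adjusted p = 0.058) became called without CD-vehicle 2 (0.035), CD-vehicle 4 (0.037) or HFD-vehicle 5 (0.040), Serpinb2 (0.77 ± 0.26, 0.130) without CD-vehicle 4 (0.042), and Serpina9 (0.55 ± 0.16, 0.068) without HFD-vehicle 1 (0.039). Serpinb1a ran the other way, at -0.52 ± 0.16 (0.096), and was called lower without HFD-vehicle 4 (0.041).

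**Figure D4:**
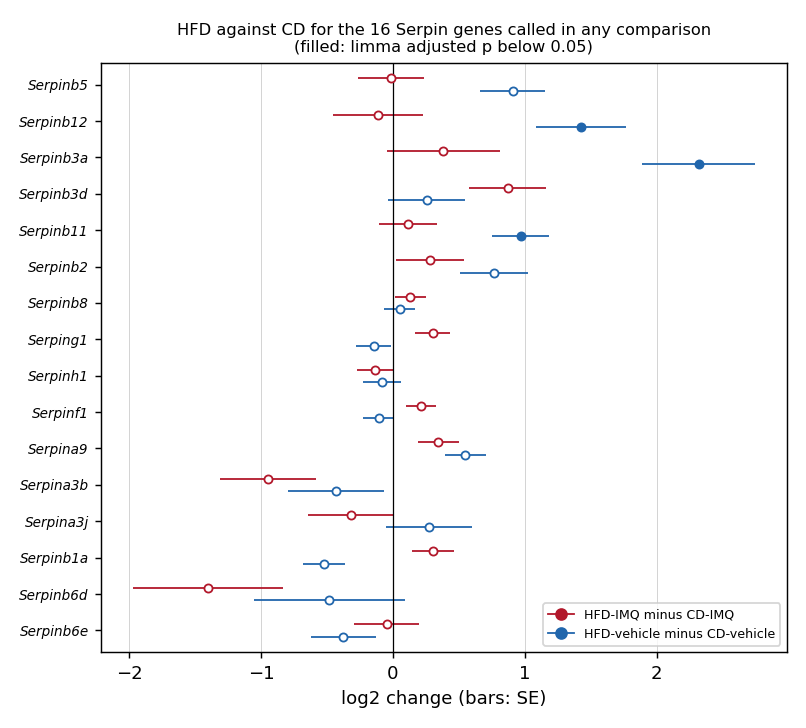
Log2 change of the 16 Serpin genes called in any comparison (x axis) for HFD-IMQ minus CD-IMQ (red) and HFD-vehicle minus CD-vehicle (blue), with bars of 1 SE and filled points where the limma adjusted p was below 0.05. Only Serpinb12, Serpinb3a and Serpinb11 in vehicle-treated skin are filled, at 1.43, 2.32 and 0.97. For Serpinb3a and Serpinb11 the CD-vehicle mean lies near or below the array medians, so these sizes are uncertain.

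In IMQ-treated skin 0 of 54 members were called for diet with limma, against 0% of all genes tested, and 8 members had an unadjusted p below 0.05, where 10.3% of all genes did. The difference for Serpinb3a was 0.38 ± 0.43, for Serpinb11 0.12 ± 0.22 and for Serpinb12 -0.11 ± 0.34. Larger but uncalled differences were those of Serpinb6d (-1.40 ± 0.57, adjusted p = 0.402), Serpina3b (-0.95 ± 0.36, 0.388) and Serpinb3d (0.87 ± 0.29, 0.342).

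The interaction, which asks whether the IMQ change differs between diets, was called for 0 of 54 members, against 0.663% of all genes (0.473% higher and 0.189% lower), with limma. An unadjusted p below 0.05 was found for 8 members, 5 of them in the chromosome 1 cluster, against 15.9% of all genes. The lowest adjusted p was that of Serpinb1a (0.82 ± 0.23, adjusted p = 0.086), followed by Serpinb3a (-1.94 ± 0.61, 0.114) and Serpinb12 (-1.54 ± 0.48, 0.118), for which the IMQ change was smaller in HFD-fed mice. Serpinb11 (-0.85 ± 0.31, 0.175) and Serpinb5 (-0.92 ± 0.35, 0.201) had the same sign. The interaction values of Serpinb3a and Serpinb11 rest on CD-vehicle values near background, so their sizes are uncertain. Without HFD-vehicle 3, Serpinb3a (-2.41, 0.017) and Serpinb12 (-1.83, 0.049) were called, and without HFD-vehicle 4, Serpinb1a (0.93, 0.049). The IMQ and diet comparisons share groups, so their values are not independent.

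Proteases and partners of serpins were followed in 9 lists, whose genes were taken by role, with earlier results of these data known. Over all genes 3.65% rose and 2.24% fell in HFD-fed mice, and 3.91% rose and 7.02% fell in CD-fed mice. For HFD-vehicle against CD-vehicle skin 1.22% were higher and 0.956% lower. The lists are small and were not tested against these shares. Tissue kallikreins, epidermal proteases of desquamation, moved with the chromosome 1 serpins: 6 of 10 rose in HFD-fed and 8 of 10 in CD-fed mice, 4 were higher in HFD-vehicle than in CD-vehicle skin, and 0 were lower in these comparisons. Klk13 rose by 2.27 ± 0.25 and 3.22 ± 0.25, and Klk6 by 1.62 ± 0.28 and 3.10 ± 0.28, in HFD-fed and CD-fed mice. Of 7 membrane serine proteases 3 rose and 1, St14 (-1.04 ± 0.30), fell in HFD-fed mice, and 5 rose in CD-fed mice, Tmprss11a among them (2.31 ± 0.20 and 1.71 ± 0.20), while 3, St14, Prss8 and Tmprss13, were higher in HFD-vehicle than in CD-vehicle skin. Of 7 cysteine cathepsins, targets of some clade B serpins, 4 rose in HFD-fed and 2 in CD-fed mice, by 0.54 ± 0.11 and 0.40 ± 0.11 for Ctsc. Of 16 other epidermal protease inhibitors 5 rose and 1 fell in HFD-fed mice and 8 rose and 1 fell in CD-fed mice, with the stefin gene Csta3 at 5.06 ± 0.39 and 6.66 ± 0.39 and Wfdc21 lower at -1.14 ± 0.19 and -1.30 ± 0.19, and 4 were higher in HFD-vehicle than in CD-vehicle skin.

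The lists of collagens and of other serpin targets moved otherwise. Of 8 collagen genes, clients of HSP47, 5 fell in HFD-fed and 6 in CD-fed mice, such as Col1a2 (-0.82 ± 0.19 and -0.73 ± 0.19) and Col4a1 (-0.65 ± 0.16 and -0.84 ± 0.16). In the plasminogen activation list of 7 genes 0 were called in HFD-fed mice and 3 fell in CD-fed mice, among them Plau (-0.57 ± 0.14), the urokinase that Serpinb2 inhibits, and Plat (-0.46 ± 0.11). The urokinase receptor gene Plaur was lower in HFD-vehicle than in CD-vehicle skin (-0.90 ± 0.18, adjusted p = 0.0077). The list of 13 proteases of neutrophils, mast cells and lymphocytes holds serine proteases and the metalloprotease gene Cpa3. Of the 13, 2 rose in HFD-fed mice, Gzma (1.73 ± 0.27) and the chymase gene Cma1 (0.64 ± 0.14), and 0 in CD-fed mice. In HFD-vehicle skin 2, Cma1 and Tpsb2, were lower than in CD-vehicle skin. The elastase gene Elane was near background at 2.44, 2.49, 2.59 and 2.29 in HFD-IMQ, CD-IMQ, HFD-vehicle and CD-vehicle skin. Of 9 coagulation and complement proteases 1 rose in CD-fed mice, F12 (0.44 ± 0.14), near background, and 0 were called in HFD-fed mice. Of 4 clearance receptors and cofactors 1 fell in CD-fed mice, Vldlr (-1.21 ± 0.23), and 0 were called in HFD-fed mice. No gene of the 9 lists was called for diet in IMQ-treated skin or for the interaction, where 0% and 0.663% of all genes were.

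Markers of cell types moved beside these results. The shares over all genes are those given with the 9 lists, and 0.189% of all genes were called lower for the interaction. Of 7 measured keratinocyte markers 2 rose and 1 fell in HFD-fed mice, 4 rose and 1 fell in CD-fed mice, and 2 were higher in HFD-vehicle than in CD-vehicle skin. Their mean level ranged from 8.51 to 9.08 in HFD-IMQ, 8.71 to 9.14 in CD-IMQ, 8.43 to 8.90 in HFD-vehicle and 7.32 to 8.38 in CD-vehicle skin, where CD-vehicle 3 was lowest. The 6 inner root sheath and hair genes, of which 6 fell in HFD-fed and 5 in CD-fed mice, ranged from 2.80 to 4.94, 2.83 to 3.50, 8.16 to 10.86 and 2.95 to 6.92 in the same order of groups, and all 6 were higher in HFD-vehicle than in CD-vehicle skin. The 6 neutrophil markers, of which 5 rose in HFD-fed and 4 in CD-fed mice, ranged from 5.61 to 6.20 in HFD-IMQ and 5.31 to 5.92 in CD-IMQ skin, against 3.31 to 3.92 in HFD-vehicle and 2.78 to 3.51 in CD-vehicle skin. Of 6 fibroblast markers 2 fell in HFD-fed and 4 in CD-fed mice, with levels of 9.19 to 10.14 and 9.48 to 9.83 in HFD-IMQ and CD-IMQ skin, against 9.81 to 10.42 and 9.76 to 10.41 in HFD-vehicle and CD-vehicle skin. This list shares Col1a1, Col1a2 and Col3a1 with the collagen list, and the 2 that fell in HFD-fed mice were Col1a2 and Col3a1. Of 5 macrophage markers 4 rose in HFD-fed and 2 in CD-fed mice, and of 5 melanocyte markers 4 fell in HFD-fed and 0 were called in CD-fed mice. In HFD-vehicle against CD-vehicle skin 3 of 5 melanocyte and 2 of 6 neutrophil markers were higher and 2 of 6 mast cell markers lower, and 4 of 6 inner root sheath and hair genes were called lower for the interaction. Those 2 mast cell markers were Cma1 and Tpsb2, which are also in the protease list above. The part of these cell types in the Serpin values was not tested.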

How the data were processed

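Skin RNA of 20 mice (300 ng each) was labelled with biotin and hybridised to Affymetrix arrays, per the labels' protocols. The deposited values are log2 values from robust multi-array averaging (RMA, affy package), per the submitters' processing notes; the sources used here give no versions or scan batches and do not say whether all arrays were normalized jointly. Of 41345 features 23521 carried 1 gene symbol, 1814 several and 16010 none in the platform table, and 22180 genes resulted. No filter on dim genes was applied. All 54 Serpin genes matched the RefSeq table by gene ID.

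Group means were fitted over all 20 arrays with limma 3.58.1 in R 4.3.3 (lmFit, eBayes), and p-values were Benjamini-Hochberg adjusted over the 22180 genes of a comparison. A gene was called at an adjusted p below 0.05. A value after ± is the standard error for a change and the standard deviation for a group mean. The number of arrays limits the precision: the median standard error of a change was 0.136. The fit was tested on simulated data. Promoter windows, motifs and end-gap-free alignments used Python 3.11.15 and biopython 1.88; 47 members had a window.

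The members and gene lists were chosen with earlier results of these data known. Array values were given for up to 4 called members with the largest changes per clade, direction and comparison and for Serpinb3a, Serpinb2, Serpina3n, Serpinh1, Serping1 and Serpinf1. Serpinb1a, Serpinb5 and Serpinb8, the other called members, and the uncalled members and partner genes named were added after their values were seen. Alternatives were another quantile normalization, array centring, a filter on dim genes, averaged features, trended and robust or weighted fits, fits to the compared groups, a replicate block and leaving out each array. The replicate number was not taken to pair mice, because residuals of arrays sharing a number correlated above 0.1 in 4 of 30 cases (range -0.217 to 0.320).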

Additional observations from a re-analysis of the deposited data

Results flagged for a closer look

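Among the 17 Serpin genes with array values, the most distant array of a group of 5 stood apart by Dixon's ratio of gap to range (critical value 0.71) in 7 of 68 groups; chance gives about 1 in 20. Serpina3n was low in HFD-vehicle 3, at 8.09 with the nearest array at 9.06 (ratio 0.858). Serpina9 was high in CD-IMQ 4, at 2.62 with the nearest at 2.18 (0.731), and in HFD-vehicle 3, at 3.02 with the nearest at 2.18 (0.729). Serpinb1a was low in HFD-IMQ 4, at 5.57 with the nearest at 6.03 (0.763). Serpinb5 was low in CD-vehicle 3, at 5.98 with the nearest at 7.31 (0.739). Serpinb6d was high in HFD-vehicle 1, at 7.91 with the nearest at 6.51 (0.764), and Serpinh1 in CD-IMQ 1, at 7.14 with the nearest at 6.69 (0.766). HFD-vehicle 3, HFD-IMQ 4 and CD-vehicle 3, which hold 4 of these 7 values, also lay farthest from their group means over all genes.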

How the results depend on the processing

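No called result changed sign under the alternatives run; some uncalled differences near 0 did. On leaving out each array in turn, the number of Serpin genes called ranged from 9 to 13 for IMQ in HFD-fed mice (11 with all arrays), from 11 to 14 for IMQ in CD-fed mice (14), from 2 to 5 for diet in vehicle-treated skin (3), from 0 to 0 for diet in IMQ-treated skin (0) and from 0 to 2 for the interaction (0). Fitting only the arrays of the groups compared called 0 for diet in vehicle-treated skin, and ended the calls of Serpinb5 in CD-fed (0.057) and Serpinb1a in HFD-fed mice (0.111); the cause was not tested. With the replicate number as a block the counts were 11, 12, 3, 0 and 0 in the same order, and Serpinb5 (adjusted p = 0.051) and Serpina9 (0.058) in CD-fed mice and Serpinb1a in HFD-fed mice (0.072) were not called. Over the 17 Serpin genes with array values, 61 single results fell outside the threshold and 17 came inside it, against 2355 that kept their side. Other members were not followed singly, so calls they gained are not in that tally. Up to 6 members were called lower for IMQ in HFD-fed mice on leaving out 1 array (4 with all arrays). Leaving out HFD-vehicle 3, HFD-IMQ 4 and CD-vehicle 3 together was chosen after seeing the data; it ended the diet call of Serpinb11 (0.099) and gave calls for Serpinb6e in the same comparison (-0.83, 0.013), Serpinb6d in CD-fed mice (-2.05, 0.0033) and Serpina9 in HFD-fed mice (0.46, 0.035). Another quantile normalization ended the calls of Serpinh1 (0.052) and Serpina9 (0.068) in CD-fed and Serpinb1a in HFD-fed mice (0.083) and gave a diet call for Serpinb5 in vehicle-treated skin (0.044), as did a filter on dim genes (0.042). Array centring ended the call of Serpina9 in CD-fed mice (0.065), trended and robust eBayes that of Serpinb12 for diet in vehicle-treated skin (0.062), and array weights gave one for Serpinb6d in CD-fed mice (-1.63, 0.049). Signal near background limits what can be said of the 28 dim members.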
